A study of Homo sapiens with 6 samples.

Results

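Keratin transcripts were followed in UWB1.289 cells after silencing of HBO1. The genes were 10 keratins of epithelial cells, KRT5, KRT7, KRT8, KRT10, KRT17, KRT18, KRT19, KRT23, KRT80 and KRT81, and every bead probe that the platform annotation assigns to one of them was taken. That gave 10 of the 47316 probes of the table, for 8 of the 10 genes and of the 20044 genes with a named probe. No probe was annotated to KRT17 or KRT81, so these genes were not analysed here. Of the 10 probes, 8 were detected well enough to be tested, and they represent 6 genes.

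UWB1.289 is a human ovarian carcinoma line without functional BRCA1. Cells in multiwell plates received either a scrambled small interfering RNA (siCTRL, 3 arrays) or one against HBO1 (siHBO1, 3 arrays), and total RNA was taken 48 hours later and measured on Illumina bead arrays. HBO1 is the histone acetyltransferase encoded by KAT7. All 6 samples come from a single line, and separate cultures are not stated for the replicates, so the p-values may reflect technical spread alone.

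Keratins are the intermediate filament proteins of epithelial cells. A filament is built from heterodimers of a type I (acidic) and a type II (basic to neutral) keratin, and a chain that lacks its partner is usually degraded. Simple, single-layered epithelia, the ovarian surface and most of its carcinomas among them, make KRT8 and KRT18, often with KRT7 and KRT19, while KRT5 and its partner KRT14 mark the basal layer of stratified epithelia and KRT10 and its partner KRT1 the layers above it. In the RefSeq annotation of GRCh38.p14 the members of type II (KRT5, KRT7, KRT8, KRT80 and KRT81) lie on chromosome 12 and those of type I (KRT10, KRT17, KRT19 and KRT23) on chromosome 17. KRT18 is a type I gene that lies on chromosome 12, next to KRT8.

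The promoters that could be shown belong to KRT5, KRT8 and KRT10, one transcript not detected in these cells and 2 that were. Each sequence is the 100 bases before the gene start that the RefSeq promoter table gives, in the direction of transcription, and capitals mark a match to TATAAA or ATAAAA, the letters of a TATA box. The windows are chr12:52520395-52520494 for KRT5, chr12:52926470-52926569 for KRT8 and chr17:40822615-40822714 for KRT10, all on the minus strand of GRCh38.p14.
KRT5: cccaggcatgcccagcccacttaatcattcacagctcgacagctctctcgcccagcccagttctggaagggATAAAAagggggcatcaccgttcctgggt
KRT8: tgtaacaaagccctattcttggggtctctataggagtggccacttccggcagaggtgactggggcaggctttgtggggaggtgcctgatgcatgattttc
KRT10: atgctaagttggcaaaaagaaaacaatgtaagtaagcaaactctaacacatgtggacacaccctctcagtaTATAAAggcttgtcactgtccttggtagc

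The KRT10 window holds TATAAA and the KRT5 window ATAAAA, each beginning 29 bases before the gene start and reading in the direction of transcription. Over windows of this length before 35116 genes, searched on both strands, 4.99% hold TATAAA and 5.95% hold ATAAAA, and the letters TATAAAA count for both. The AP-1 motif TGANTCA was in none of the 3 windows and is in 2.75% of all. The KRT8 window belongs to 1 annotated start of that gene, and neither motif of the TATA box was in it. A match describes the letters only.

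The siRNA target was checked first. KAT7 (ILMN_1798187) read 7.98, 7.93 and 7.56 on the siCTRL arrays and 5.59, 6.28 and 5.98 on the siHBO1 arrays, in normalised log2 intensity, without overlap between the groups (log2 fold change -1.87, limma adjusted p = 0.0186). The probe was detected on 3 of 3 siCTRL and 2 of 3 siHBO1 arrays, and the size of the fall depends on the background handling, at -1.44 with the authors' processed values and -0.74 without background correction. Between 20546 and 21507 probes were detected per array. The RNA came from whole cultures, in which fewer cells of a kind and less RNA per cell cannot be told apart.

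None of the keratins typical of simple epithelia passed the test for a change after HBO1 silencing. KRT8, the main type II keratin of simple epithelia, read 13.23, 13.05 and 13.15 on the siCTRL arrays and 13.44, 13.11 and 13.08 on the siHBO1 arrays. The groups overlapped, with siHBO1 replicate 1 above all other arrays. The log2 fold change was 0.07 (SE 0.12, 95% interval -0.22 to 0.36, limma adjusted p = 0.809), so the siHBO1 level was 105% of control with an interval from 85.6% to 128%.

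KRT18, the type I partner of KRT8, was measured by a brighter and a dimmer probe. The brighter one (ILMN_1803408) read 10.98, 10.99 and 10.85 in siCTRL and 11.17, 10.76 and 11.05 in siHBO1. The siHBO1 arrays lay on either side of the siCTRL arrays, and the log2 fold change was 0.05 (SE 0.13, 95% interval -0.25 to 0.35, limma adjusted p = 0.855). The dimmer probe (ILMN_1730848), annotated to another transcript record, read 6.93, 6.59 and 7.21 in siCTRL and 7.05, 6.45 and 6.89 in siHBO1, a log2 fold change of -0.11 (SE 0.21, 95% interval -0.60 to 0.37, limma adjusted p = 0.802). The signs of the 2 probes differed and both intervals held 0. KRT8, KRT18 and KRT19 have many processed pseudogenes in the human genome, and without probe sequences it could not be seen which of them a probe might also bind.

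KRT7, a type II keratin of glandular epithelium that pathologists use to recognise ovarian carcinoma, had the narrowest interval of the tested keratin probes. It read 13.60, 13.47 and 13.46 in siCTRL and 13.59, 13.52 and 13.43 in siHBO1. The ranges covered each other almost fully. The siHBO1 level was 100% of control, with a 95% interval from 86.1% to 117% (log2 fold change 0.0057, SE 0.09, limma adjusted p = 0.981).

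KRT19, the smallest type I keratin and a common partner of KRT8 and KRT7, leaned upward. The siCTRL arrays read 13.54, 13.17 and 13.25 and the siHBO1 arrays 13.65, 13.45 and 13.57. Replicate 1 of siCTRL lay within the siHBO1 range, and the other siCTRL arrays lay below it. The log2 fold change of 0.23 (SE 0.12, 95% interval -0.06 to 0.53), or 118% of control, did not pass the test (limma adjusted p = 0.33, two-sided exact permutation p = 0.2). The smallest permutation p that 3 against 3 arrays allow is 0.1.

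KRT80, a type II keratin linked to desmosomes and to migration of carcinoma cells, had the lowest values relative to control among the members, on both of its probes. The dimmer probe (ILMN_2366445) read 11.08, 10.89 and 11.11 in siCTRL and 10.90, 10.25 and 10.48 in siHBO1. Replicates 2 and 3 of siHBO1 lay below every siCTRL array, while replicate 1 was level with the lowest of them. The log2 fold change was -0.48 (SE 0.17, 95% interval -0.89 to -0.08), which is 71.6% of control, and the limma adjusted p of 0.168 missed the threshold of 0.05 (unadjusted p = 0.025, two-sided exact permutation p = 0.2).

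The brighter KRT80 probe (ILMN_1705814) read 13.61, 13.68 and 13.55 in siCTRL and 13.62, 13.25 and 13.36 in siHBO1. Here too siHBO1 replicate 1 lay among the siCTRL arrays and the other siHBO1 arrays below them. The log2 fold change was -0.20 (SE 0.12, 95% interval -0.48 to 0.07, limma adjusted p = 0.374). The 2 probes had a Pearson correlation of 0.89 over the 6 arrays, given as a description because probes of a gene share their RNA.

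Without siHBO1 replicate 1 the KRT80 values were -0.66 (limma adjusted p = 0.097) and -0.31 (limma adjusted p = 0.209) on the dimmer and the brighter probe. Without siHBO1 replicate 2 they were -0.34 and -0.13. With a trended and robust prior in place of the constant one, the dimmer probe passed at the same fold change (limma adjusted p = 0.0414), in a fit that called 8.83% of all tested probes. Under the other 14 of 15 alternative fits it did not pass.

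KRT10, the type I keratin of differentiating epidermis, was detected on all 6 arrays, and its epidermal partners KRT1 and KRT2 on none. It read 11.27, 11.09 and 11.28 in siCTRL and 11.28, 11.06 and 11.01 in siHBO1. The groups overlapped, and the log2 fold change was -0.10 (SE 0.11, 95% interval -0.36 to 0.16, limma adjusted p = 0.661).

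KRT5, the type II keratin of basal cells, and KRT23, a type I keratin found in some carcinomas, were detected on 0 of 6 arrays and were not tested. KRT5 (ILMN_1801632) read between 4.65 and 4.95 and KRT23 (ILMN_1791545) between 4.83 and 5.0, in normalised log2 intensity, where the signal of a negative control lies. The lowest detection p on any array was 0.512 for KRT5 and 0.44 for KRT23. KRT14, the usual partner of KRT5, was also detected on no array. These readings set no fold change, and levels below the arrays' background would not have been seen.

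**Figure D1:**
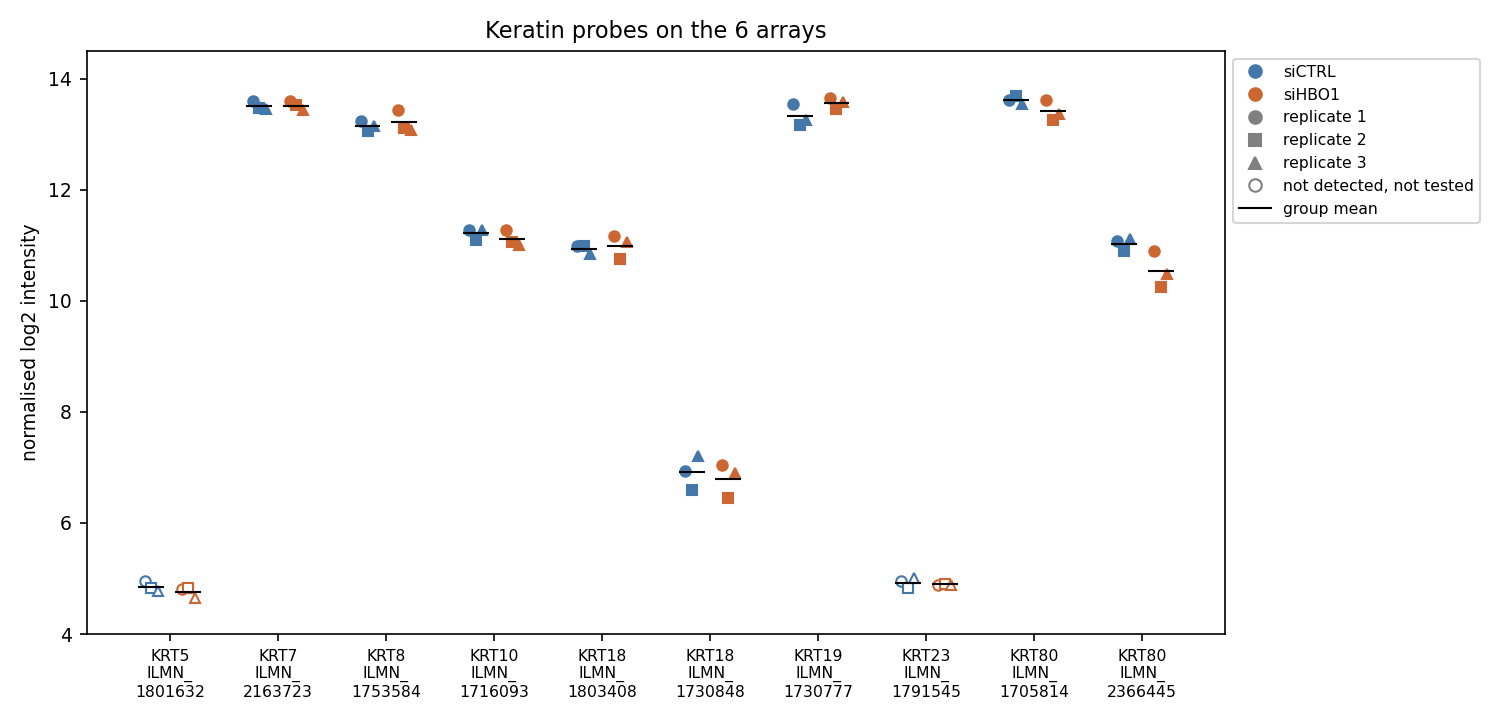
Normalised log2 intensity of each of the 10 keratin probes on the 3 siCTRL (blue) and 3 siHBO1 (orange) arrays, with the group mean as a line and the replicate as the marker shape. Open symbols are the KRT5 and KRT23 probes, detected on 0 of 6 arrays, and on the 8 tested probes replicate 1 is the highest siHBO1 array.

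Over the 8 tested probes, limma called 0 higher and 0 lower at a Benjamini-Hochberg adjusted p of 0.05, where 2.73% of the 21333 tested probes were called (1.47% higher and 1.26% lower). Only the dimmer KRT80 probe, 1 of 8, had an unadjusted p under 0.05, against 21.4% of all tested probes. For 0 of the 8 probes the groups of arrays did not overlap, while 27.1% of all tested probes had groups that did not. The log2 fold changes ran from -0.48 to 0.23, 4 above and 4 below 0, with a median of -0.047 against -0.006 for all tested probes. Their median size without sign was 0.11, against 0.16 for all tested probes.

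How large a change these arrays could have missed differs by probe. A 1.5-fold rise was outside the 95% interval of all 8 tested probes, and a 1.5-fold fall was outside that of 6, the exceptions being the dimmer probes of KRT80 and KRT18. In simulated data with the spread of these arrays and 200 of 21333 probes changed, the same fit recovered 31.9% of 1.5-fold and 88.2% of 2-fold changes. Bright and dim probes are pooled in these shares, which hold for that number of changed probes. They are not shares for the keratin probes, which were not simulated apart. A keratin change under 1.5-fold could have gone uncalled. Raw signals of the brightest members reached 14240, below the highest signal on any array, which lay between 25786 and 27417.

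**Figure D2:**
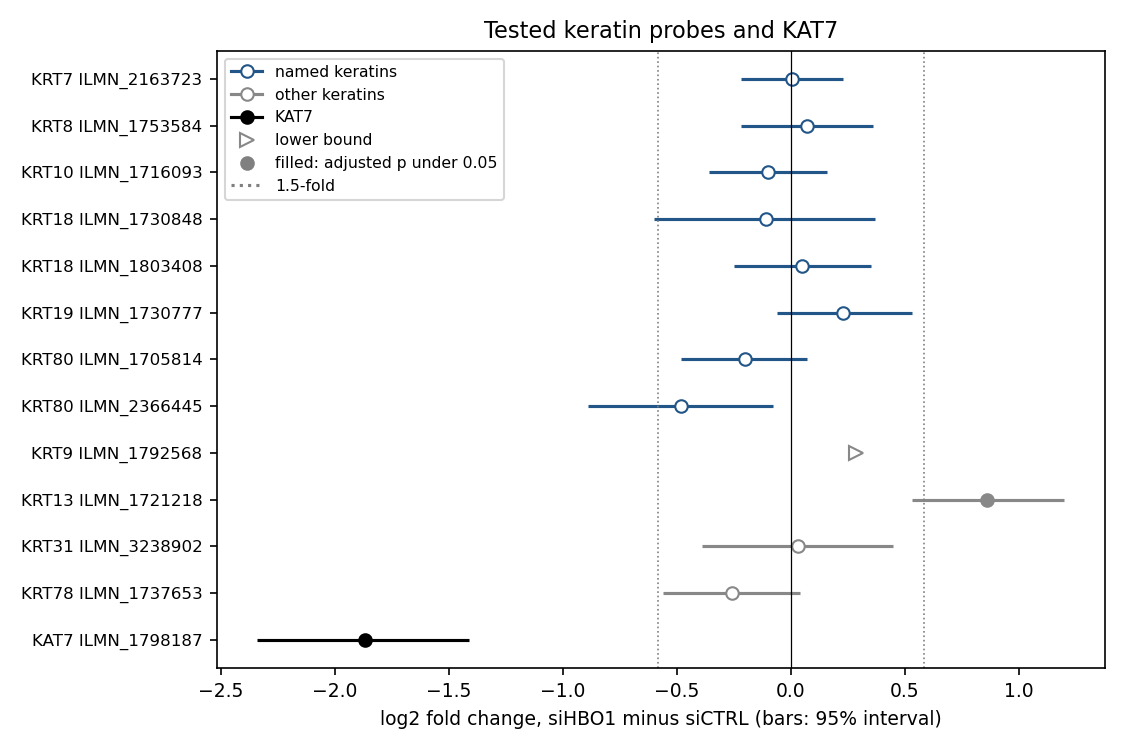
Log2 fold change, siHBO1 minus siCTRL, with limma's 95% interval for the 8 tested probes of the named keratins (blue), the 4 tested probes of other keratins (grey) and KAT7 (black), with dotted lines at 1.5-fold. The intervals of 7 of the 8 blue probes hold 0, and KRT13 and KAT7 are filled because they passed an adjusted p of 0.05. The triangle for KRT9 is a lower bound and has no interval.

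Replicate 1 read high within the siHBO1 group on these genes. siHBO1 replicate 1 was the highest siHBO1 array on 8 of the 8 tested keratin probes, by a mean of 0.19 on the log2 scale above the group means. Its mean deviation over all tested probes was 0.001, but quantile normalisation holds that value near 0 on every array. How often it was the highest siHBO1 array over all tested probes was not counted. siHBO1 replicate 2 was the lowest on 5 of the 8, with a mean deviation of -0.16. In siCTRL the deviations were smaller, from -0.09 to 0.07. There no array was the highest on more than 3 probes, and replicate 2 was the lowest on 5 of the 8. Replicate 1 of siCTRL was above its group mean on 7 of the 8 and the lowest on 0. Leaving out siHBO1 replicate 1 turned the sign of KRT8 (-0.05), the brighter KRT18 probe (-0.03) and KRT7 (-0.03), moved KRT10 to -0.18 and the dimmer KRT18 probe to -0.24, and kept KRT19 at 0.19. None of these passed the test (limma adjusted p from 0.448 to 0.923). The cause of the array's position was not tested.

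**Figure D3:**
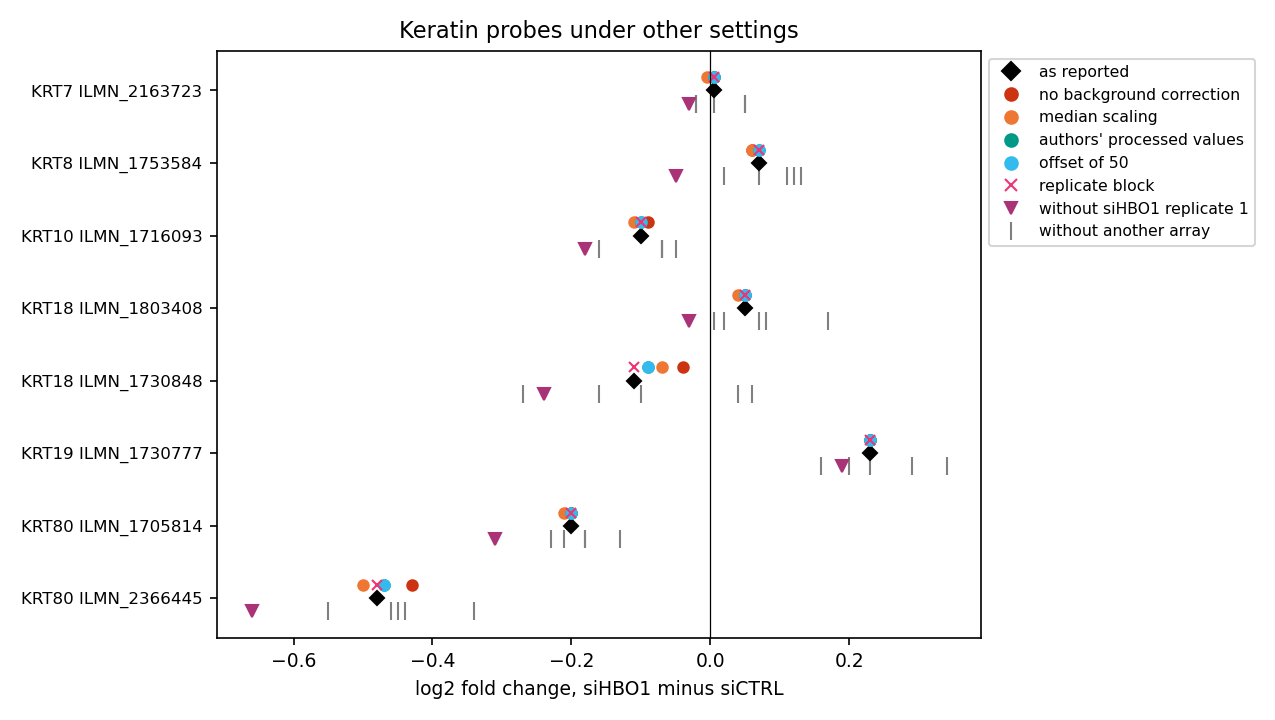
Log2 fold change of the 8 tested keratin probes as reported (black diamonds), under other processing (coloured points) and with 1 array left out (grey ticks, and purple triangles for siHBO1 replicate 1). Processing moved the values little, and leaving out siHBO1 replicate 1 moved every probe downward, to -0.66 for the dimmer KRT80 probe.

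The genes with the profile most like the dimmer KRT80 probe over the 6 arrays were VPS37B, a subunit of the ESCRT-I sorting complex (Pearson r = 0.995), CNTN1, a neuronal cell adhesion protein (r = 0.988), and RUVBL1, an ATPase of chromatin remodelling complexes (r = 0.986). They are the highest of 16246 named probes compared, so high values arise from the search itself. Their log2 fold changes were -0.21, -0.26 and -0.32, and none passed (limma adjusted p = 0.31, 0.278 and 0.162), although RUVBL1 did with the trended and robust prior (limma adjusted p = 0.0483). On each of them siHBO1 replicate 1 was the highest siHBO1 array, which follows from choosing them for likeness to a KRT80 probe with that order.

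Most other keratins were not detected in this line. Of 40 further keratin genes with a probe, 33 were detected on no array, among them KRT1, KRT2, KRT4, KRT14, KRT15, KRT16 and KRT20, and 4 had a tested probe. KRT13, a type I keratin of non-cornified stratified epithelium such as the oral lining, rose from 8.29, 8.12 and 7.91 in siCTRL to 9.07, 9.09 and 8.75 in siHBO1. Every siHBO1 array lay above every siCTRL array, and the log2 fold change of 0.86 (SE 0.14, 95% interval 0.53 to 1.20, limma adjusted p = 0.0341) is 182% of control. KRT4, the usual partner of KRT13, was detected on 0 of 6 arrays.

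The KRT13 value was 0.57 without background correction, where it also passed. Its call was lost without siCTRL replicate 1 (0.96), siCTRL replicate 2 (0.87), siCTRL replicate 3 (0.76), siHBO1 replicate 1 (0.81) or siHBO1 replicate 2 (0.81), with limma adjusted p from 0.0558 to 0.13, and also with no detection filter (limma adjusted p = 0.0545). Fits with an array left out called few probes of any kind: 1 without siCTRL replicate 2 or 3, 6 without siHBO1 replicate 1 and 3 without siHBO1 replicate 2, of 21333 tested, and the KAT7 call was lost in the same 4 fits. The other tested keratins did not pass. KRT9, a type I keratin of palm and sole epidermis, was detected on 0 of 3 siCTRL and 3 of 3 siHBO1 arrays, so it entered the test only through siHBO1 and its siCTRL level is a bound. As a bound on the means alone, KRT9 was at least 1.22-fold higher in siHBO1. This took the mean normalised signal over the siHBO1 arrays against, on each siCTRL array, the higher of its own signal and the lowest detected one. The bound leaves out the spread of the arrays. The limma adjusted p of 0.0844 belongs to the fit on the undetected siCTRL signals and not to the bound. The remaining tested keratins were KRT31, a hair keratin, at 0.03, and KRT78, a type II keratin, at -0.26 (limma adjusted p = 0.297). Whether KRT13 differed from the 10 named keratins was not tested.

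Genes that share work with keratins were read from lists, each gene by its brightest tested probe, where 3.19% of 12227 genes were called in all (1.91% higher and 1.28% lower) and the median log2 fold change was 0.01. Shares by unadjusted p and by groups without overlap are over all tested probes, dim ones included. They were not computed over genes. Among 11 measured genes of other intermediate filaments, 1 rose, 0 fell and the median was 0.00. SYNM, the large filament linker synemin, rose from 9.13, 9.23 and 9.23 to 9.62, 9.77 and 9.61 (log2 fold change 0.47, SE 0.09, limma adjusted p = 0.0496), without overlap, and lost its call on leaving out any 1 array (0.42 to 0.50, limma adjusted p from 0.0703 to 0.153) and with no detection filter (limma adjusted p = 0.0903). VIM, vimentin of mesenchymal and many carcinoma cells, was at -0.06 (SE 0.10, limma adjusted p = 0.801) and read between 13.81 and 14.04 on all arrays.

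Proteins that anchor keratin filaments to desmosomes and other junctions were measured by 12 genes, of which 1 rose and 0 fell, with a median of -0.11. By unadjusted p under 0.05, 2 were higher and 1 lower, where 21.4% of all tested probes had such a p. The lower one was PKP2, at -0.38 without overlap (limma adjusted p = 0.112). JUP, the desmosomal and adherens junction protein plakoglobin, rose from 11.62, 11.49 and 11.43 to 12.40, 12.39 and 12.19 (log2 fold change 0.81, SE 0.10, limma adjusted p = 0.0222). Its other probes were at 0.38 and 0.54 and were not called (limma adjusted p = 0.0816 and 0.0517). The JUP call was lost without siCTRL replicate 2 (0.80), siCTRL replicate 3 (0.77), siHBO1 replicate 1 (0.77) or siHBO1 replicate 2 (0.78), with limma adjusted p from 0.0707 to 0.11.

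The list of transcription factors of epithelial and keratin genes had 18 measured members, of which 0 rose and 1 fell, with a median of 0.15. FOSL1, an AP-1 subunit, fell from 11.05, 11.42 and 11.49 on the siCTRL arrays to between 9.93 and 10.66 on the siHBO1 arrays (log2 fold change -1.12, SE 0.22, limma adjusted p = 0.0486). Every siHBO1 array lay below every siCTRL array. The call was lost without any siCTRL array (-1.25, -1.07 and -1.04 for replicates 1, 2 and 3) and without siHBO1 replicate 1 (-1.02) or 2 (-0.99), with limma adjusted p from 0.0709 to 0.16, and with no detection filter (limma adjusted p = 0.0775). At an unadjusted p under 0.05 there were 4 higher and 1 lower among the 18 in this list, where 21.4% of all tested probes had such a p. GRHL3 and OVOL1, transcription factors of epithelial differentiation, read 1.32 (SE 0.43, limma adjusted p = 0.142) and 0.83 (SE 0.23, limma adjusted p = 0.0985). Each of these probes was detected on 1 of 3 siCTRL and 3 of 3 siHBO1 arrays. Another GRHL3 probe (ILMN_2388874), detected on 1 of 3 arrays in each group and not tested, averaged 5.83 in siCTRL and 5.74 in siHBO1. Of the same families, GRHL1 was at -0.19, GRHL2 at 0.16 and OVOL2 at 0.14 (limma adjusted p = 0.618, 0.668 and 0.658). Those 3 probes were detected on all 6 arrays.

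The cornified envelope and squamous list holds markers of stratified epithelia, in whose layers KRT1, KRT5 and KRT10 are made. It had 11 of 19 genes measured and 0 called in either direction, with a median of 0.12, and 0 had an unadjusted p under 0.05. Its highest and lowest values were 0.43 for TGM1, the transglutaminase that crosslinks the envelope, and -0.43 for SCEL, an envelope precursor (limma adjusted p = 0.246 and 0.287). IVL, the envelope protein involucrin, was detected on no array.

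Markers of ovarian carcinoma and epithelium were detected for 12 of 12 genes, with 3 higher, 0 lower and a median of 0.50. MUC16, the mucin that carries CA-125, rose from 9.21, 8.64 and 8.79 to 10.41, 10.24 and 9.97 (log2 fold change 1.33, SE 0.18, limma adjusted p = 0.0243). CD24, a glycosylated surface protein of many carcinomas, rose by 0.95 (SE 0.10, limma adjusted p = 0.0186) and CDH1, E-cadherin, by 0.76 (SE 0.13, limma adjusted p = 0.04). On all 3 genes the groups did not overlap. At an unadjusted p under 0.05 there were 6 higher and 1 lower, where 21.4% of all tested probes had such a p. The lower one was WT1, at -0.53 (limma adjusted p = 0.113), without overlap and detected on 3 of 3 siCTRL and 1 of 3 siHBO1 arrays. CLDN4 was also below 0, at -0.12 (limma adjusted p = 0.813). MUC1, a membrane mucin, was at 1.03 on its brightest probe (limma adjusted p = 0.0667) and at 0.94 on another (limma adjusted p = 0.0877), and its dimmest tested probe passed at 0.96 (limma adjusted p = 0.0186). CLDN3, a tight junction claudin, was at 0.58 (limma adjusted p = 0.0922) and WFDC2, the secreted tumour marker HE4, at 0.52 (limma adjusted p = 0.173). EPCAM, the epithelial adhesion molecule, was at 0.0081, 0.03 and 0.25 on its probes from brightest to dimmest, with groups that did not overlap on the dimmest (limma adjusted p = 0.216), and PAX8, a Müllerian transcription factor, was at 0.05.

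Those 3 calls were lost in fits with an array left out, in which the fold changes moved little. MUC16 (1.21 to 1.32, limma adjusted p from 0.0722 to 0.106) and CD24 (0.88 to 0.95, limma adjusted p from 0.0655 to 0.0979) lost theirs without siCTRL replicate 2 or 3 or siHBO1 replicate 1 or 2, and CDH1 lost its call on leaving out any 1 array (0.66 to 0.87, limma adjusted p from 0.0548 to 0.149) and with no detection filter (limma adjusted p = 0.0655). The summed normalised signal of the epithelial list was 37100 to 42100 on siCTRL arrays and 49200 to 50100 on siHBO1 arrays. Such a sum is weighted to bright probes. The brightest were EPCAM (mean 14.27 in siCTRL and 14.28 in siHBO1), CLDN3 (12.62 and 13.20), MSLN (12.13 and 12.30) and CD24 (11.89 and 12.83). Whether the keratins differed in response from these markers was not tested.

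For markers of other cell types 0 genes were called, although LRRN4 passed in 6, CD14 in 3 and PDPN in 2 of 15 alternative fits each. The mesenchymal and fibroblast list had 7 of 12 genes measured, 4 above and 3 below 0, with a median of 0.14. Its largest values on the brightest probes were 0.66 for THY1 and 0.43 for FN1, which ranged from 0.28 to 0.98 and from 0.20 to 0.67 on leaving out 1 array. COL1A2, the only gene of the list with an unadjusted p under 0.05, was at 0.33 without overlap (limma adjusted p = 0.201). Its other tested probe was at 0.69, with groups that overlapped (limma adjusted p = 0.254). CDH2 was at 0.14, COL1A1 at -0.14, DCN at -0.09 and VIM at -0.06. The list's summed signal was 21700 to 24700 in siCTRL and 22400 to 25000 in siHBO1, most of it VIM and CDH2, and PDGFRA, PDGFRB, COL3A1, LUM and FAP were detected on no array.

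The mesothelial list had 3 of 4 genes measured. On the brightest probe of each, all were below 0, with a median of -0.42. The groups did not overlap on these probes, which was so for 27.1% of all tested probes. LRRN4 was at -0.53 (limma adjusted p = 0.0677), and it passed with the authors' processed values (-0.49, limma adjusted p = 0.0449), without background correction (-0.39, limma adjusted p = 0.016) and with the strict detection filter (-0.53, limma adjusted p = 0.0331), among others. PDPN was at -0.42 (limma adjusted p = 0.118) and CALB2 at -0.19 (limma adjusted p = 0.345). The other tested CALB2 probe was at 0.15, with groups that overlapped (limma adjusted p = 0.649). The list's summed signal was 1760 to 2040 in siCTRL and 1350 to 1480 in siHBO1.

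The leukocyte and endothelial list had 4 of 7 genes measured, with CD14 at 0.79 (limma adjusted p = 0.0988) and PECAM1 at 0.68 (limma adjusted p = 0.102). CD68, the brightest of the 4, was at 0.08 (limma adjusted p = 0.823). The other tested CD68 probe was at -0.25 without overlap (limma adjusted p = 0.197). Summed signal of the list was 2040 to 2240 in siCTRL and 2240 to 2420 in siHBO1. The leukocyte markers PTPRC and CD3E were detected on no array. Of the endothelial markers, PECAM1 and CDH5 were detected on all 6 arrays, CDH5 at 0.06, and VWF on 0 of 3 siCTRL and 2 of 3 siHBO1 arrays, without overlap and not tested. The part of these cell type markers in any keratin value was not tested.

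**Figure D4:**
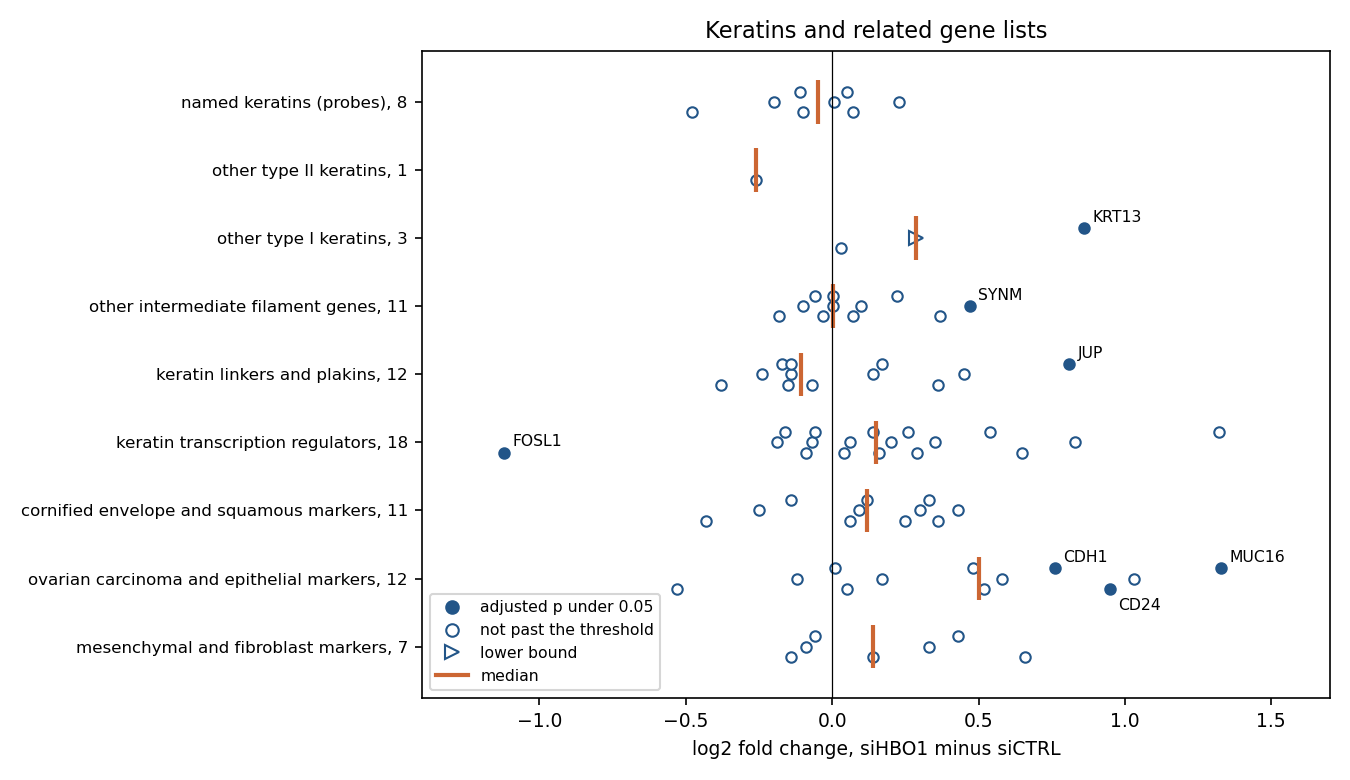
Log2 fold change, siHBO1 minus siCTRL, of the 8 tested keratin probes and of genes in 8 related lists (brightest probe of each gene), with the list median as an orange bar and filled points for an adjusted p under 0.05, and KRT9 as a triangle at its lower bound. The named keratins have a median of -0.047 and no filled point, and KRT13, SYNM, JUP, MUC16, CD24 and CDH1 are filled on the right and FOSL1 on the left.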

How the data were processed

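The deposited table holds each probe's mean bead intensity per array, neither normalised nor background-subtracted (its lowest values lie between 131.7 and 165.6), and a detection p-value, per the file headers. The authors' processed table holds log2 values whose 6 columns share their quantiles, with background handling not given in the sources used here. It tracked its own arrays (correlation of deviations at least 0.96, against at most 0.45 for another array). Per the submitters' processing notes, GenomeStudio and lumi were used. Intensities were corrected and quantile-normalised (neqc, offset 16) and fitted as siHBO1 minus siCTRL with lmFit and eBayes in limma 3.58.1 (R 4.3.3, statmod 1.5.0), over the 21333 probes with a detection p under 0.05 on at least 3 of 6 arrays, with Benjamini-Hochberg adjustment over all of them. SE and intervals are limma's moderated ones. Precision is limited by the number of arrays.

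Of the probes, 30109 carried 1 gene symbol, 8 several and 17207 no single one, including those 8. Symbols were updated with RefSeq (GRCh38.p14) for 30070. No slide or scan date was given, so batches could not be examined. The members and lists were chosen with earlier results of these data known. Named were all member probes, KAT7, up to 4 called genes of each list or else the 2 with the largest change, and the 3 genes most correlated with the member of largest change. Outside that rule, KRT9, KRT31, VIM, CDH2, COL1A1, COL1A2, DCN, GRHL3, OVOL1, MUC1, WT1, CLDN3, CLDN4, WFDC2, EPCAM, PAX8, CALB2, CDH5, VWF and genes named only as undetected were chosen after their values were seen. The same holds for CD68, PKP2, MSLN, GRHL1, GRHL2 and OVOL2. In 10 simulated sets of 21333 probes, each with 200 changed probes, 5.64% of the calls were unchanged probes.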

Additional observations from a re-analysis of the deposited data

How the results depend on the processing

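The count of called keratin probes stayed at 0 under every alternative except the trended and robust prior, where it was 1, KRT80 (ILMN_2366445). Over 119 values of the 8 tested probes under 15 alternative fits, 8 had the opposite sign and none of those 8 passed the test. KRT7 was at -0.0051 with median scaling. On leaving out 1 array, KRT7 ranged from -0.03 (without siHBO1 replicate 1) to 0.05, KRT8 from -0.05 (without siHBO1 replicate 1) to 0.13, the brighter KRT18 probe from -0.03 (without siHBO1 replicate 1) to 0.17 and the dimmer KRT18 probe from -0.27 to 0.06 (without siHBO1 replicate 2). The dimmer KRT18 probe had no value with a detection p under 0.01 on all 6 arrays.

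The number of probes called over the whole table, 582, was far less stable: 1811 without background correction, 979 with the authors' values, 1020 with an offset of 50, 247 with no detection filter, 1138 with the strict filter, 1884 with the trended and robust prior, 913 with array weights, 2 at an adjusted p of 0.01, 1665 at 0.10, and 1 to 271 on leaving out 1 array. KAT7 ranged from -2.04 to -1.69 on leaving out 1 array and lost its call without siCTRL replicate 2 or 3 or siHBO1 replicate 1 or 2, and without background correction it was at -0.74. With the replicate number as a block 282 probes passed, 67% of them higher against 54% without the block, FOSL1 and SYNM lost their calls (limma adjusted p = 0.0506 and 0.068) and CD14 gained one (limma adjusted p = 0.0442). The correlation of deviations between same-numbered arrays was 0.26, -0.02 and 0.22. With an array of another number it was at most 0.02, 0.09 and -0.01, so the same number was the best match for replicates 1 and 3 and not for replicate 2. The numbers were not taken as a pairing in the reported fit, and whether same-numbered arrays share an effect was not tested. Of 281 values of the 19 other genes followed, 0 changed sign, 40 lost a call and 12 gained one, 6 of these for LRRN4, 3 for CD14, 2 for PDPN and 1 for RUVBL1. Dim probes such as that of KRT18 are limited by signal near background.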
